A study of Mus musculus with 16 samples.

Results

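The genes described here are 10 repressors and outputs of the circadian clock, Ciart, Per1, Per2, Per3, Cry1, Cry2, Nr1d1, Nr1d2, Dbp and Tef, in mouse liver with or without the histone chaperone HIRA. They were selected by gene name from the 55421 gene rows of the deposited count table, and all 10 were among the 23018 genes with enough counts to be tested. The set was chosen because of the values of Ciart in HIRA KO against control after regeneration, and the other 9 genes were added as clock genes, with results of these data known. That comparison is therefore given below as a description, without a test, for all 10 genes.

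Poly-A RNA had been sequenced in bulk from the livers of 8 male mice, each sampled before and after regeneration, which gave 16 libraries. Control and HIRA KO mice thus contributed 4 libraries each at both times. All mice received an AAV8 virus, whose Tbg promoter is active in hepatocytes, at 6 months of age. HIRA KO livers came from HIRAfl/fl mice given AAV8-Tbg-Cre, with wildtype mice given the same virus as controls, or from wildtype C57BL/6 mice given AAV8-Tbg-saCas9 with a guide RNA against HIRA, with a Rosa26 guide as control. Per the labels each group held 2 libraries of each approach, but the columns of the tables do not say which. The resected lobes, taken 4 weeks after injection, were the samples before regeneration, and the liver that remained 5 days later gave the samples after it. Lobe, way of collection and time therefore changed together and cannot be told apart. The study's methods state that surgeries were done in the morning; the hour at which each mouse was killed after regeneration is not given in the sources used here, so hour of collection and group cannot be told apart either. Deletion was limited to hepatocytes, and the libraries were made from whole liver tissue, in which fewer cells of a type and less RNA per cell cannot be told apart.

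The circadian clock is a feedback loop of transcription with a period of about a day. The activators CLOCK (or NPAS2) and BMAL1, the product of Arntl, bind E-boxes and switch on the Per and Cry genes, whose proteins enter the nucleus and block the activators. In a second loop the same activators switch on Nr1d1 and Nr1d2, which encode REV-ERB-alpha and REV-ERB-beta, repressors of Arntl, Npas2 and Nfil3 through ROR elements. Ciart (CHRONO) is a further repressor of CLOCK and BMAL1. Dbp and Tef are output factors that bind D-boxes, the site that NFIL3 occupies in the opposite phase, and in liver these outputs time metabolic genes. Levels of most of these genes change several-fold over the day in mouse liver, and Arntl, Npas2 and Nfil3 peak when Dbp is low.

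Total counts per library ran from 15103059 to 21738619, and values are given as CPM (counts scaled to library sizes after TMM normalisation). Each library is named by its group and by the running number of its column, which is a name only. Hira itself, the deleted gene, lay at 3.13 to 4.38 CPM in HIRA KO against 5.21 to 6.18 in control before regeneration, and at 3.04 to 4.56 against 4.99 to 6.29 after it. The 2 genotypes did not overlap at either time, and 4.53% of all genes before and 4.45% after regeneration were lower in HIRA KO in this way. Hira did not reach an adjusted p under 0.05 at either time (edgeR log2 fold change -0.70 and -0.69, adjusted p = 0.129 and 0.0666). On the second principal component over 13176 genes (26.5% of the variance), HIRA KO libraries 1 and 2 before and 1 and 2 after regeneration stood apart, at 36.2 to 47.4 against -31.2 to 1.14 in the other 12 libraries. The main comparisons with HIRA KO are given with and without these 4 libraries. Hepatocyte markers summed to at least 109437 CPM in every library, and no marker of any cell type examined was at 0 in all libraries.

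The promoters of 4 genes that hold more than 1 match to clock motifs are shown first, because E-boxes and D-boxes are the elements through which the loop acts. Sequences are from RefSeq on GRCm38.p6, which held an entry for 9 of the 10 genes (11 start sites) and none for Per2. Each was searched on both strands over the 250 bases before the start for the E-box CACGTG, the E′ box CACGTT, the D-box TTATGTAA or TTATGCAA, and the ROR element. No match of one motif overlapped a match of another. The annotation of Per1 begins upstream of its window, at 69095217, so that its sequence lies within the annotated gene. Each sequence below runs 5′ to 3′ toward the start and is cut where it meets an annotated exon of the gene, with motif matches in capitals: Ciart at chr3:95882252-95882478 (minus strand), Per1 at chr11:69098699-69098947 (plus strand), Per3 at chr4:151044666-151044915 (minus strand) and Cry1 at chr10:85185065-85185304 (minus strand).
Ciart: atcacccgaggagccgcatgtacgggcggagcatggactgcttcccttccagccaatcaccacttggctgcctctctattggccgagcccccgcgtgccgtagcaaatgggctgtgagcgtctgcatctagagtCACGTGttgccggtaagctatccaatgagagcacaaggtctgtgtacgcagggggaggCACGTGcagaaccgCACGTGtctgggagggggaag
Per1: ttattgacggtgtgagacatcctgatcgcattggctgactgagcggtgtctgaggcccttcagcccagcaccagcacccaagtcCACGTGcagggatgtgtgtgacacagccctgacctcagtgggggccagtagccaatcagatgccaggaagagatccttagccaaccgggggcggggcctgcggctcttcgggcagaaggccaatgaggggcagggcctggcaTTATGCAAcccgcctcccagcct
Per3: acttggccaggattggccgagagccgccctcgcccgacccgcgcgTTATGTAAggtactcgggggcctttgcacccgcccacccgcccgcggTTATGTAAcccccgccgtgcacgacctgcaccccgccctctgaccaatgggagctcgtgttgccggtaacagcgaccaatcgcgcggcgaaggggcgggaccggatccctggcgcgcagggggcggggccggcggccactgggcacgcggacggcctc
Cry1: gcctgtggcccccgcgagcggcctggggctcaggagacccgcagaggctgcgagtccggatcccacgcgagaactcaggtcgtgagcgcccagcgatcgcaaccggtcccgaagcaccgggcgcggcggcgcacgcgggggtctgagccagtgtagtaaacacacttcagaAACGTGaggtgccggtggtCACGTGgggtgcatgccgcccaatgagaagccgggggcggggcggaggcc

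Ciart held 3 E-boxes, which began 116, 58 and 44 bases before its start. Per1 held an E-box 166 bases and a D-box 24 bases before the upstream of its 2 starts, and Per3 held D-boxes at 205 and 158 bases. Cry1 held an E-box at 60 and an E′ box at 79 bases. An E-box was present in 4 of the 9 genes (Ciart, Cry1, Per1 and Tef), against 6.02% of all 32851 promoters of the same length. A gene was counted if any of its starts held a match, whereas the shares here are over single promoters. An E′ box was present in 3 (Cry1, Cry2 and Nr1d1), against 3.85% of promoters, and a D-box in 2 (Per1 and Per3), against 1.50%. The ROR element was found in none of the 9, against 0.332% of promoters. Dbp and Nr1d2 held none of these letters in this window. A match is a description of the sequence and shows no binding in these livers.

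**Figure D1:**
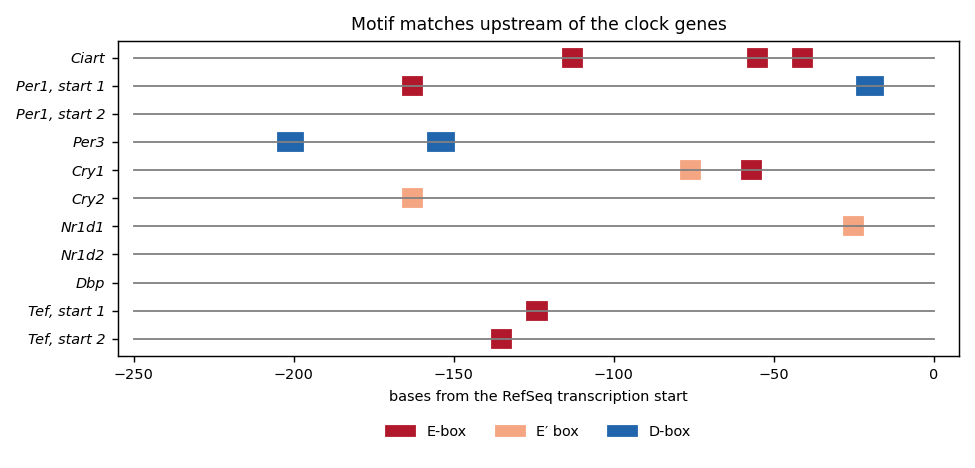
Motif matches in the 250 bases before each RefSeq start, with the distance from the start in bases on the x axis and 1 line for each of 11 starts. E-boxes are red, E′ boxes light orange and D-boxes blue; Ciart is the gene with 3 E-boxes.

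The first question was how the clock genes changed over regeneration in control livers. After regeneration 8 of the 9 genes tested were lower than before it: Per1, Per2, Per3, Cry2, Nr1d1, Nr1d2, Dbp and Tef. Of all 23018 genes, 4.17% were called lower in this comparison (edgeR, adjusted p under 0.05). The fall was largest for Dbp and Per3 and smallest for Cry2, and Cry1 was not called. Ciart is given here without a test, since its values in the control libraries after regeneration led to the set. The same libraries hold the values of the other 9 genes. Pearson r of their levels with Ciart over the 16 libraries ran from -0.49 (Cry1) to 0.87 (Dbp). The p-values below are therefore independent neither of the choice of the set nor of the comparison between genotypes after regeneration.

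Dbp, the D-box binding activator, was at 46.7, 34.7, 7.10 and 7.34 CPM in the control libraries before regeneration and at 3.07, 3.38, 0.872 and 3.17 after it. All 4 libraries after regeneration lay below all 4 before it, although libraries 3 and 4 before were much nearer to them than libraries 1 and 2. Its log2 fold change was -3.19 ± 0.878 (SE; edgeR adjusted p = 0.0365). Tef, its close relative, was at 159, 148, 67.8 and 86.0 CPM before and 36.1, 39.1, 30.0 and 29.7 after regeneration. The groups again did not overlap, with a log2 fold change of -1.77 ± 0.411 (edgeR adjusted p = 0.0144).

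The 3 Per genes, whose proteins carry the negative limb of the loop, fell together. Per1 was at 70.8, 36.0, 16.2 and 58.3 CPM before and 4.70, 7.28, 14.3 and 12.5 after regeneration, a log2 fold change of -2.22 ± 0.516 (edgeR adjusted p = 0.0157). Per2 went from 35.7, 49.8, 27.9 and 24.7 to 9.33, 14.4, 10.9 and 8.98 CPM, a log2 fold change of -1.66 ± 0.489 (edgeR adjusted p = 0.0475). Per3 went from 31.0, 18.6, 8.13 and 6.45 to 2.44, 3.67, 2.02 and 2.40 CPM, a log2 fold change of -2.61 ± 0.707 (edgeR adjusted p = 0.0333). In each of the 3 genes the highest library after regeneration lay below the lowest before it, by a narrow margin for Per1, at 14.3 against 16.2 CPM.

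The Cry genes, partners of the Per proteins and the stronger repressors of CLOCK and BMAL1, differed from each other. Cry2 fell from 43.9, 33.8, 36.2 and 25.7 CPM to 24.3, 25.6, 15.3 and 16.0, a log2 fold change of -0.79 ± 0.237 (edgeR adjusted p = 0.0457). The gap between its groups was only that between 25.7 and 25.6 CPM. Cry1 was at 8.11, 7.80, 20.7 and 16.6 CPM before and 12.2, 10.5, 28.6 and 11.8 after regeneration, so its groups overlapped (log2 fold change 0.25 ± 0.376, edgeR adjusted p = 0.770).

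Both REV-ERB genes fell by about the same amount. Nr1d1 was at 95.2, 75.7, 117 and 78.5 CPM before and 45.9, 52.7, 17.4 and 44.4 after regeneration (log2 fold change -1.19 ± 0.352, edgeR adjusted p = 0.0451). Nr1d2 was at 68.8, 63.4, 37.7 and 53.9 CPM before and 25.1, 31.6, 24.5 and 27.4 after it (log2 fold change -1.04 ± 0.200, edgeR adjusted p = 0.00358). Neither gene's groups overlapped. The 3′ end of Nr1d1 (GRCm38 chromosome 11, 98767932 to 98775333, minus strand) overlaps that of Thra, a thyroid hormone receptor gene on the other strand (98740638 to 98769006), and the counting strand is not stated. Thra was at 10.0 to 22.6 CPM over the 16 libraries and was itself called lower in control after regeneration (log2 fold change -0.48, edgeR adjusted p = 0.0471), so part of the Nr1d1 count is uncertain.

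Ciart was at 4.38, 2.80, 0.973 and 2.19 CPM in control before regeneration and at 0.689, 0.344, 0.545 and 0.480 after it, which is 6 to 11 counts in a library. Its level after regeneration was 0.199 of that before, the groups did not overlap, and the fitted log2 fold change was -2.33 ± 0.783. In all, 9 of the 10 genes, Ciart among them, were lower in every control library after regeneration than in any before it, as were 8.98% of all genes. This count and the median that follows include Ciart, whose values in these libraries led to the set, and are a description. The median log2 fold change of the 10 genes was -1.72, and that of all genes tested was 0.0029. Kupffer cell markers (5 genes) summed to 137 to 359 CPM in control before and 585 to 756 after regeneration, and to 172 to 213 and 575 to 903 in HIRA KO, and their part in the fall was not tested.

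The calls in control rested on all 8 libraries to different degrees. With each control library left out in turn, 3 to 6 of the 9 genes were called, and Per1, Nr1d2 and Tef were called in all 8 of these fits. Per2 and Nr1d1 were called in 0 of the 8, with adjusted p up to 0.118 and 0.104, Dbp and Per3 in 2 and Cry2 in 3. No direction changed in these 8 genes. Without libraries 1 or 2 before, or 3 or 4 after, the count was 3, without library 1 or 2 after it was 4, and without library 3 or 4 before it was 5 and 6.

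**Figure D2:**
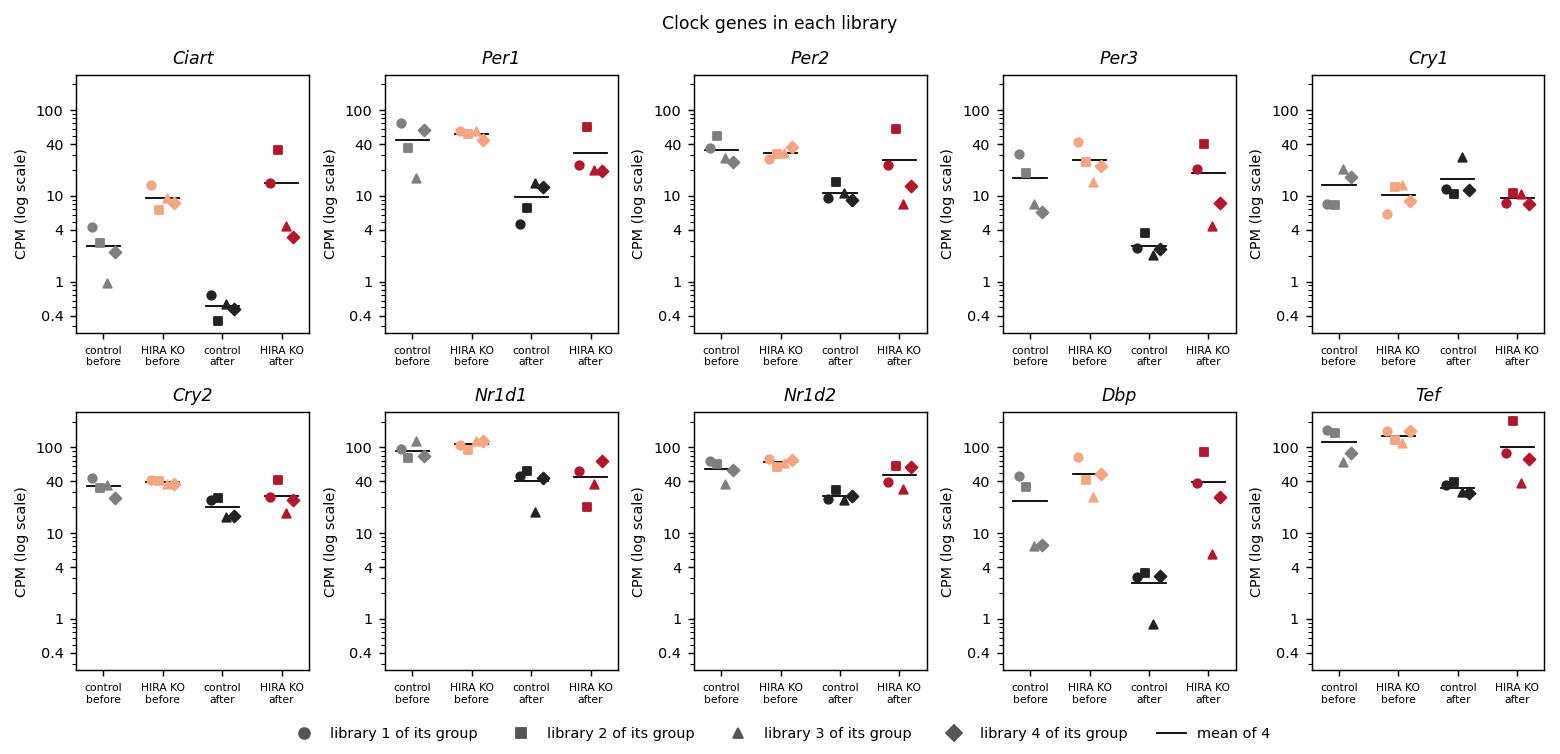
CPM (log scale, the same for every panel) of the 10 genes in each of the 16 libraries, by group on the x axis; point shapes give the column number within a group and bars the mean of 4. In control after regeneration Dbp lies between 0.872 and 3.38 CPM, below every library of the other 3 groups, while HIRA KO library 2 after regeneration reaches 87.0 CPM.

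The same comparison in HIRA KO livers gave 1 call among the 9 genes tested. Its libraries after regeneration were also part of the comparison that led to the set, so these p-values are not independent of that choice. Nr1d1 fell from 106, 92.8, 118 and 118 CPM to 52.3, 19.9, 37.4 and 68.8, with a log2 fold change of -1.29 ± 0.352 (edgeR adjusted p = 0.0297). Of all genes, 5.53% were called lower here. It was also the only one of the 10 genes whose HIRA KO libraries did not overlap between the times, against 7.45% of all genes that were lower in this way.

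Of the other genes, Dbp was at 77.8, 41.9, 26.5 and 49.2 CPM before and 37.9, 87.0, 5.64 and 26.5 after regeneration in HIRA KO (log2 fold change -0.32 ± 0.755, edgeR adjusted p = 0.839). After regeneration library 2 lay above the range before it, library 1 within it, library 4 at its lower edge and library 3 below. Tef was at 157, 123, 112 and 153 CPM before and 85.3, 201, 38.8 and 73.8 after (log2 fold change -0.45 ± 0.398, edgeR adjusted p = 0.520). Again library 2 was the highest and library 3 the lowest of the libraries after regeneration.

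The Per genes spread in the same order after regeneration in HIRA KO for Per2 and Per3, with library 2 highest, library 1 next and library 3 lowest. Per2 was at 27.0, 30.8, 31.5 and 37.5 CPM before and 22.9, 59.4, 8.06 and 13.0 after, and Per3 at 42.1, 24.9, 14.3 and 22.5 before and 20.7, 40.1, 4.51 and 8.35 after. Per1 was at 57.2, 53.1, 57.4 and 44.2 CPM before and 22.8, 63.8, 20.1 and 19.3 after, so that 3 of its 4 libraries after regeneration were below all 4 before and library 2 was above them. The fitted log2 fold changes were -0.29 ± 0.471 for Per2, -0.50 ± 0.628 for Per3 and -0.75 ± 0.488 for Per1, none of them called (edgeR adjusted p from 0.360 to 0.748).

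Nr1d2 was at 73.5, 58.3, 66.1 and 70.3 CPM before and 39.2, 60.6, 32.3 and 59.4 after regeneration in HIRA KO (log2 fold change -0.49 ± 0.197, edgeR adjusted p = 0.121). Cry2 was at 42.0, 40.8, 37.5 and 37.1 CPM before and 26.5, 41.4, 17.2 and 24.3 after (log2 fold change -0.52 ± 0.235, edgeR adjusted p = 0.161), so the groups overlapped through library 2 in Cry2, and through libraries 2 and 4 in Nr1d2. Cry1 was at 6.14, 12.5, 13.4 and 8.77 CPM before and 8.29, 10.7, 10.6 and 8.13 after (log2 fold change -0.11 ± 0.382, edgeR adjusted p = 0.889). Ciart, given without a test, was at 13.5, 6.80, 9.38 and 8.33 CPM before and 14.0, 34.3, 4.51 and 3.28 after (log2 fold change 0.56 ± 0.600), so 2 libraries lay above the range before and 2 below it. The median log2 fold change of the 10 genes was -0.47, against 0.02 over all genes.

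One library decided much of this. Without HIRA KO library 2 after regeneration, edgeR called 3 of the 9 genes lower, Per2 (adjusted p = 0.0444), Cry2 (adjusted p = 0.0263) and Tef (adjusted p = 0.0461), and Nr1d1 was no longer called (its adjusted p ran from 0.0161 to 0.0799 over the 8 fits that left out a library). The call of Nr1d1 was also lost without HIRA KO library 3 or 4 before or library 3 after regeneration, where 0 genes were called. Without the 4 HIRA KO libraries that stood apart, which left 2 a group, Per2 alone was called (log2 fold change -1.71, edgeR adjusted p = 0.0136). The log2 fold changes of several other genes were then larger, at -1.51 for Per3, -1.35 for Per1, -1.24 for Dbp, -1.22 for Tef and -0.84 for Cry2. Ciart turned from 0.56 to -1.16 without these 4 libraries, and ran from -0.36 to 0.90 with single libraries left out, the lowest without library 2 after regeneration.

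**Figure D3:**
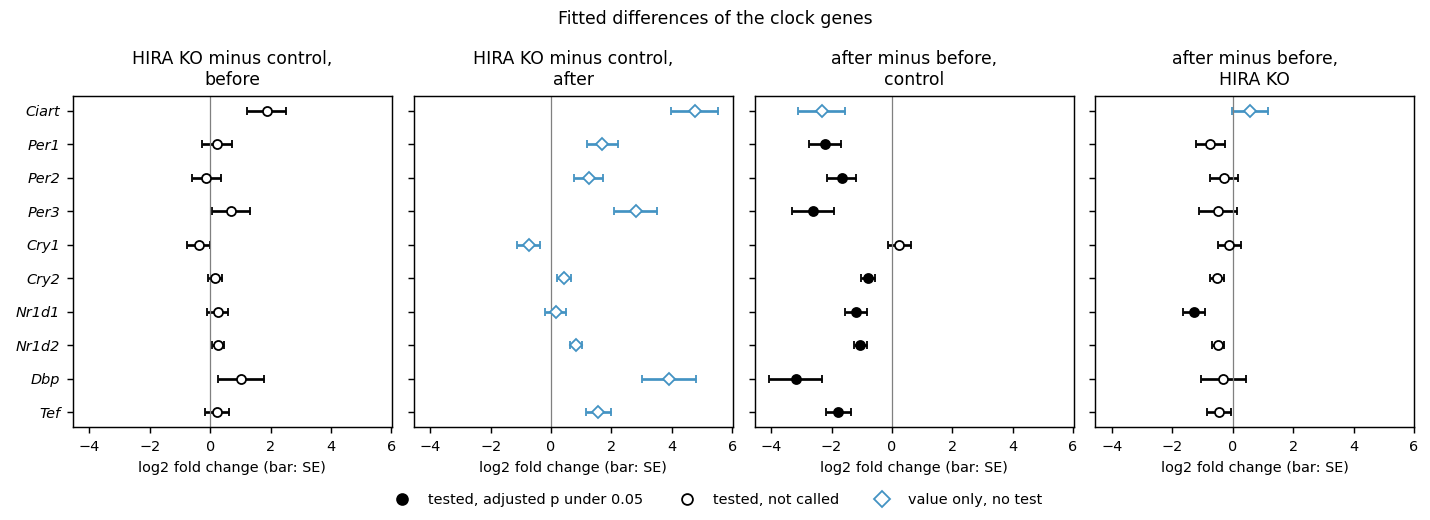
Fitted log2 fold change of the 10 genes in 4 comparisons (x axis), with bars of 1 SE; filled circles were called by edgeR, open circles were tested and not called, and blue diamonds are values given without a test. In control 8 circles are filled, all to the left of 0, and in HIRA KO after against before only that of Nr1d1.

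Before regeneration, HIRA KO and control livers were compared in libraries outside the comparison that led to the set. They came from the same mice, however, and the set was chosen with results of these data known. The p-values here are therefore not independent of that choice. None of the 10 genes was called by edgeR, where 9 of 23018 genes (0.0391%) were called and 3031 had an unadjusted p under 0.05. Ciart came nearest, at 13.5, 6.80, 9.38 and 8.33 CPM in HIRA KO against 4.38, 2.80, 0.973 and 2.19 in control, a mean 3.68 times that of control (log2 fold change 1.87 ± 0.644, edgeR adjusted p = 0.264). It was the 1 gene of the 10 whose HIRA KO libraries all lay above the control libraries, as did 3.54% of all genes. DESeq2, which called 1.63% of all genes, called Ciart (adjusted p = 0.0448) and none of the other 9. Without the 4 libraries that stood apart, its log2 fold change before regeneration was 1.76 (edgeR adjusted p = 0.236).

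Dbp had the next largest difference before regeneration, at 48.9 ± 21.5 CPM in HIRA KO and 24.0 ± 20.0 in control (SD, n = 4; log2 fold change 1.03 ± 0.766). The high control libraries 1 and 2 lay within the range of the HIRA KO libraries, and libraries 3 and 4 lay below it. Per3 followed with a log2 fold change of 0.69 ± 0.632. Without the 4 libraries that stood apart these values were 0.65 for Dbp and 0.19 for Per3. With all libraries the other 7 genes lay between -0.38 and 0.26. The edgeR adjusted p of these 9 genes ran from 0.605 to 0.947. The median of the 10 genes was 0.24 and that of all genes 0.0094. Stellate cell markers (5 genes) summed to 188 to 383 CPM in HIRA KO and 165 to 182 in control before regeneration, without overlap between the genotypes. Hepatocyte markers (6 genes) summed to 124859 to 161276 and 109437 to 123470, also without overlap, but Alb made up most of these sums (mean 115033 and 86653 CPM). By fitted value 2 of the 6 hepatocyte markers were higher in HIRA KO and 4 were lower, with Apoa1 the lowest (log2 fold change -0.85). None of the 6 was called. The part of both lists in the values of Ciart was not tested. Cholangiocyte, endothelial and lymphocyte markers overlapped between the genotypes at both times, and stellate and hepatocyte markers after regeneration.

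After regeneration, in the comparison that led to the set, HIRA KO livers held more of 9 of the 10 transcripts by fitted value. Ciart was at 14.0, 34.3, 4.51 and 3.28 CPM in HIRA KO against 0.689, 0.344, 0.545 and 0.480 in control, a mean 27.2 times that of control. Every HIRA KO library was above every control library, and the lowest HIRA KO library stood at 59 counts against at most 11 in control. Dbp was at 39.3 ± 34.5 CPM against 2.62 ± 1.17 (SD, n = 4), a ratio of 15.0, and its library 3 in HIRA KO, at 5.64 CPM, was the one nearest to control. Per3 was at 18.4 ± 16.0 against 2.63 ± 0.717 CPM (SD, n = 4), and its library 3 was at 4.51 CPM.

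The differences graded down through the set after regeneration. The fitted log2 fold changes of HIRA KO against control were 4.76 for Ciart, 3.90 for Dbp, 2.81 for Per3, 1.70 for Per1, 1.57 for Tef, 1.25 for Per2, 0.82 for Nr1d2, 0.43 for Cry2, 0.15 for Nr1d1 and -0.74 for Cry1. Ciart, Dbp, Per3, Per1 and Nr1d2 did not overlap between the genotypes, and 3.65% of all genes were higher in HIRA KO in this way. The same share for edgeR calls in either direction was 0.491%. The rest overlapped. For Tef HIRA KO library 3, at 38.8 CPM, fell just below the highest control library at 39.1. For Nr1d1 the lowest HIRA KO library, at 19.9 CPM, stood beside the lowest control library at 17.4. Cry1, the only gene lower in HIRA KO by fitted value, ran from 8.13 to 10.7 CPM there and from 10.5 to 28.6 in control.

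These values rested unequally on the libraries. Without HIRA KO library 2 after regeneration the median log2 fold change of the 10 genes was 0.84 in place of 1.41, and that of Ciart 3.83. Without the 4 HIRA KO libraries that stood apart, Ciart was at 2.94, Dbp at 2.62 and Per3 at 1.30 log2 units above control, while Per2 was at -0.04 and Cry2 at 0.05. Per2 was the only one of the 10 genes whose sign then changed. The part of these libraries' other differences in the result was not tested.

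Whether the change over regeneration itself differed between genotypes is given by value only, since it contains the comparison that led to the set. The after-minus-before log2 change was higher in HIRA KO than in control by 2.89 ± 0.989 for Ciart, 2.88 ± 1.14 for Dbp and 2.12 ± 0.936 for Per3 (SE). Next came Per1 (1.47 ± 0.698), Per2 (1.37 ± 0.675) and Tef (1.32 ± 0.566). The change was higher by 0.56 for Nr1d2 and 0.26 for Cry2, and the differences were -0.09 for Nr1d1 and -0.36 for Cry1. Without the 4 HIRA KO libraries that stood apart, the difference was 1.96 for Dbp, 1.17 for Ciart, 1.11 for Per3, 0.87 for Per1, 0.55 for Tef, 0.48 for Nr1d2, 0.06 for Nr1d1, -0.04 for Per2, -0.05 for Cry2 and -0.47 for Cry1. The SE was then 1.36 for Dbp, 0.593 for Ciart and 0.892 for Per3. The values of Ciart, Dbp, Per1, Per2, Per3 and Tef thus depended strongly on these libraries. A call in control and none in HIRA KO does not show that the genotypes differed.

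The activators and opposite-phase genes formed a list of 5: Arntl, Clock, Npas2, Rora and Nfil3. None of the 5 was called in any of the 4 comparisons. Of all genes, 0.0391% were called in HIRA KO against control before regeneration and 0.491% after it. Over regeneration the shares were 10.2% in control and 12% in HIRA KO. By value the 5 genes ran opposite to most of the set. In control after against before regeneration 5 of 5 were above 0, and in HIRA KO against control after it 5 of 5 were below 0. Arntl, which encodes BMAL1, was at 31.8, 29.5, 39.7 and 27.8 CPM in control and 13.2, 2.44, 25.7 and 12.6 in HIRA KO after regeneration. Npas2, the CLOCK paralogue, was at 9.96, 11.0, 14.2 and 8.83 CPM in control and 2.54, 0.0444, 5.26 and 1.84 in HIRA KO. Both genes were lower in each HIRA KO library than in any control library after regeneration, as were 4.45% of all genes.

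Nfil3, the repressor at D-boxes, was at 58.9, 44.7, 48.9 and 44.0 CPM in control and 20.4, 11.7, 41.2 and 19.8 in HIRA KO after regeneration. Its lowest value, as for Arntl, Npas2 and Clock (17.0 CPM), was in HIRA KO library 2, the library with the most Dbp, Tef, Per2 and Ciart of all 16. Before regeneration the split lay inside the control group. Nfil3 was at 15.6 and 15.4 CPM in control libraries 1 and 2 and at 71.7 and 58.9 in libraries 3 and 4, while Dbp was at 46.7 and 34.7 and then at 7.10 and 7.34. Rora, an activator at ROR elements, was the steadiest of the list, with the smallest spread within groups (SD 0.191 on the log2 scale).

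The balance between both arms was read within each library as the log2 ratio of Dbp to Arntl CPM, which the scaling between libraries does not touch. It was 2.34, 1.93, -2.0 and -1.62 in control before, 3.19, 1.26, 0.60 and 1.98 in HIRA KO before, -3.37, -3.13, -5.51 and -3.13 in control after, and 1.52, 5.16, -2.19 and 1.07 in HIRA KO after regeneration. Control libraries after regeneration held the 4 lowest values of all 16. The means were 0.16 ± 2.29, 1.76 ± 1.11, -3.79 ± 1.16 and 1.39 ± 3.01 in the same order (SD, n = 4), so the spread within control before and HIRA KO after regeneration was as large as many differences between groups. HIRA KO library 3 after regeneration lay next to control libraries 3 and 4 before it. No test is given for this ratio, which was formed after the values were seen.

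**Figure D4:**
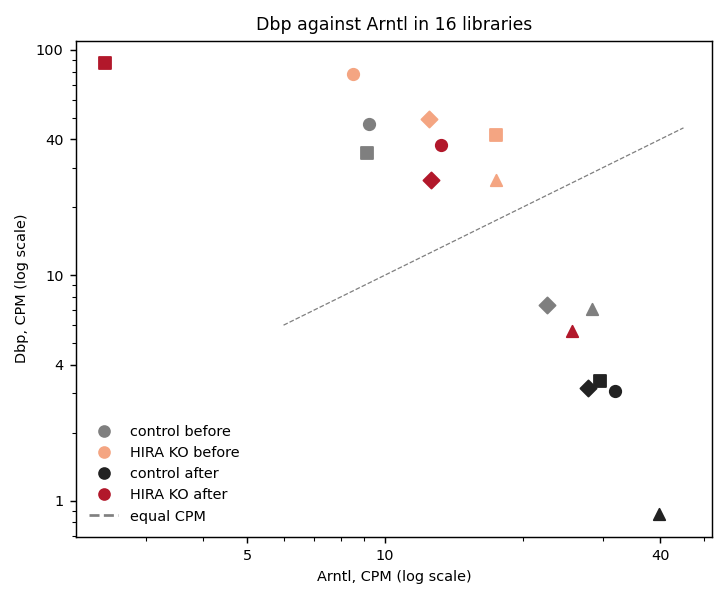
Dbp against Arntl CPM (both on a log scale) in the 16 libraries, with colours for the 4 groups, point shapes for the column number as in the plot of CPM by library, and a dashed line at equal CPM. All 4 control libraries after regeneration lie at the lower right, with Arntl at 27.8 CPM or more, and HIRA KO library 2 after regeneration lies alone at the upper left, with Arntl at 2.44 and Dbp at 87.0 CPM.

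The set also stood out by its spread among libraries of the same group. The pooled SD within groups of log2(CPM + 1) was 1.12 for Dbp, more than that of 99.1% of the 13176 genes with a mean CPM of at least 1, whose median was 0.215. It was 0.873 for Per3, 0.787 for Ciart, 0.696 for Per1, 0.651 for Per2, 0.587 for Tef, 0.541 for Nr1d1 and 0.522 for Cry1. Cry2 at 0.352 and Nr1d2 at 0.309 were the least spread, above 80.6% and 74.4% of genes. Among the opposite arm, Nfil3 (0.790), Arntl (0.783) and Npas2 (0.749) were as spread as the Per genes.

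**Figure D5:**
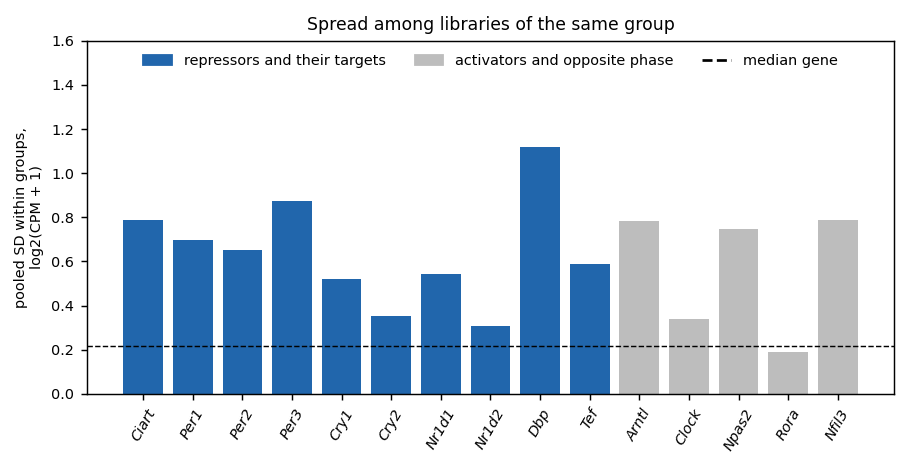
Pooled SD within the 4 groups of log2(CPM + 1), for the 10 genes (blue) and the 5 activators and opposite-phase genes (grey), with the median of 13176 genes as a dashed line. Dbp is the tallest bar at 1.12 and Rora, at 0.191, is the only bar below the median of 0.215.

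These deviations went together in part of the set. Over the 16 libraries, with each group's mean taken away, Pearson r between 2 of the 10 genes was above 0 in 30 of 45 pairs (median r 0.51, range -0.67 to 0.94). Every pair below 0 held Cry1 or Nr1d1. The 28 pairs without these 2 genes, set aside after the values were seen, were thus all above 0 by that choice (median r 0.74, range 0.13 to 0.94). The share of pairs above 0 over all genes is not given here. The closest pairs were Dbp with Per3 (r = 0.94) and Dbp with Tef (r = 0.93). Dbp went against Arntl (r = -0.91), Npas2 (r = -0.91) and Nfil3 (r = -0.88), and against Cry1 (r = -0.67). Nr1d1 had r = -0.66 with Per1, r = -0.53 with Ciart and r = -0.06 with Dbp. These are descriptions over 16 libraries that share their depth and composition within each library, and HIRA KO library 2 after regeneration is extreme in many of them.

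The genes whose levels were most like Ciart and Dbp were sought among 13166 other genes over the 16 libraries. For Ciart the 5 highest r were for Eif1ax (0.93), Arl3 (0.92), Gpt (0.92), Bmp7 (0.92) and Slc2a4 (0.92), and the 5 lowest for Sppl2a (-0.94), Tmed7 (-0.92), Spcs3 (-0.92), Ext2 (-0.92) and Shc1 (-0.92). For Dbp the highest were Txnrd3 (0.92), Sipa1l2 (0.92), Gpt (0.90), Fbxl15 (0.89) and Peg13 (0.88), and the lowest St3gal1 (-0.96), Npas2 (-0.96), Loxl4 (-0.92), Prg4 (-0.91) and Rnf126 (-0.91). Gpt, which encodes an alanine aminotransferase, was named for both. Npas2 was the only clock gene among them.

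Other clock regulators formed a list of 9, and 3 of them fell over regeneration in control: Bhlhe40 and Bhlhe41, which encode the E-box repressors DEC1 and DEC2, and Hlf, the third relative of Dbp and Tef. Bhlhe41 was at 7.66, 5.92, 1.55 and 0.296 CPM before and 0.376, 0.172, 0.218 and 0.336 after (log2 fold change -3.78 ± 0.841, edgeR adjusted p = 0.0111). Its library 4 before thus lay within the range after. That range was 3 to 7 counts a library, which limits the fold change. Bhlhe40 had a log2 fold change of -2.11 ± 0.286 (edgeR adjusted p = 0.000492) and Hlf of -0.92 ± 0.165 (edgeR adjusted p = 0.00215). In HIRA KO, Bhlhe40 (-0.92) was called lower and Timeless (1.09) higher. Of all genes, 4.17% were called lower in control and 5.53% in HIRA KO after regeneration. The shares called higher were 6.04% and 6.48%. In HIRA KO against control, 0 of the 9 were called at either time, against 0.0391% of all genes before and 0.491% after regeneration.

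Clock-controlled liver genes formed a list of 13. In control, 0 were called over regeneration, with 9 lower by value and a median log2 fold change of -0.81, and in HIRA KO 1 was called, Ppara, a fatty acid receptor, at -0.87 (edgeR adjusted p = 0.0427). Over all genes, 4.17% were called lower in control and 5.53% in HIRA KO. In HIRA KO against control 0 of 13 were called at either time, with medians of 0.32 before and 0.58 after regeneration. The shares called over all genes were 0.0391% and 0.491%.

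Per length, as the deposited FPKM, Nr1d1 (28.7 ± 4.98) and Tef (26.6 ± 11.6) had the highest levels of the 10 genes in control before regeneration and Ciart the lowest (1.63 ± 0.651; SD, n = 4). Nr1d1 and Tef did not differ beyond their spread there. In control after regeneration Nr1d1 led at 13.9 ± 5.31 FPKM, Dbp was at 1.95 ± 0.799, and Ciart (0.493 ± 0.207) and Per3 (0.436 ± 0.101) were last and within each other's spread. In HIRA KO after regeneration Dbp (29.5 ± 27.3), Tef (23.3 ± 15.4) and Nr1d1 (15.7 ± 7.55) were the highest and did not differ beyond their spread, and Cry1 was the lowest at 2.69 ± 0.360. In HIRA KO before regeneration the order was again led by Nr1d1 (35.0 ± 3.12), Dbp (32.8 ± 15.5) and Tef (31.1 ± 4.74), with Cry1 last at 2.84 ± 0.847.

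The other genes lie on chromosome 1 (Per2), 2 (Cry2), 3 (Ciart), 4 (Per3), 7 (Dbp), 10 (Cry1), 11 (Per1), 14 (Nr1d2) and 15 (Tef) of GRCm38. With Nr1d1, 6 of the 10 share bases with another annotated gene. Dbp (45705088 to 45710203, plus strand) overlaps Sphk2, a sphingosine kinase gene on the other strand, which was at 35.5 to 60.6 CPM in control and 37.4 to 51.4 in HIRA KO after regeneration. The neighbours of Ciart, Cry2 and Tef (C920021L13Rik, D930015M05Rik and Gm17597) did not exceed 0.888 CPM in any library, and Camta1, which overlaps Per3 on the same strand, was at 2.93 to 5.17 CPM. In control after regeneration C920021L13Rik was at 0.327 to 0.720 CPM and Camta1 at 2.93 to 3.88, near Ciart and Per3 there, and Sphk2 lay above Dbp. The counting strand is not stated, so part of the low counts of Ciart, Per3 and Dbp is uncertain too. These neighbours' ranges overlapped between HIRA KO and control after regeneration in every case.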

How the data were processed

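Bulk RNA-seq of 16 mouse liver libraries was analysed from 2 deposited tables. According to the study's methods, the authors aligned reads to mm10 with STAR and counted them per gene with HOMER, while the submitters' processing notes also name HTSeq and Cufflinks; the counting strand is not given in the sources used here. The deposited count table holds raw counts and the deposited FPKM table values scaled by length and library size by the authors.

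The columns name genotype, time and a running number found in no label, so each was used as a replicate of its group only. Every column was mapped. The mouse behind a column is not named, so p-values measure the spread between these libraries. Counts of the 24 pairs within groups differed beyond sampling noise (chi-square per degree of freedom 12.4 to 135).

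Genes with at least 10 counts in total (23018) were fitted in 1 model with 4 group means by edgeR 4.0.16 (R 4.3.3; TMM, robust quasi-likelihood test, Benjamini-Hochberg adjustment over all genes, called at adjusted p under 0.05), tested on simulated data. DESeq2 1.42.0, RLE scaling, other filters, fits of only the groups compared, single libraries left out and FPKM (as differences of mean log2(FPKM + 1), with a pseudocount of 1) were alternatives. Leaving out the 4 libraries that stood apart was chosen after seeing the data. Some genes of the lists are not reported here and were left out of the list counts. The members, lists and tests were chosen with earlier results of these data known. All 10 members are named, as are called genes of the other lists, all 5 activators and the 5 genes at each end of likeness to Ciart and Dbp. SEs are approximate, from the fold change and its F statistic. Total counts per library (15103059 to 21738619) set the precision.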

Additional observations from a re-analysis of the deposited data

Results flagged for a closer look

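Over the 40 combinations of a gene and a group of 4 libraries, 3 held a library far from the other 3 by Dixon's criterion (a gap over 0.83 of the range), where chance flags about 1 in 20 groups. Per1 in HIRA KO after regeneration had library 2 at 63.8 CPM, with the others between 19.3 and 22.8. Cry1 in control after regeneration had library 3 at 28.6 CPM, with the others between 10.5 and 12.2. Dbp in control after regeneration had the same library 3 at 0.872 CPM, with the others between 3.07 and 3.38. Library 3 also held the least Nr1d1 of that group (17.4 CPM) and the most Arntl (39.7 CPM). What sets these libraries apart was not tested.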

How the results depend on the processing

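In HIRA KO against control before regeneration, 0 of 10 genes were called under each alternative and each left-out library, except that DESeq2 called 1, Ciart. In control after against before regeneration, 8 of 9 genes were called, and 7 or 8 with RLE scaling, filterByExpr, DESeq2 or only the groups compared. As said above, these p-values are not independent of the choice of the set. Without the filter on low counts it was 3 (Nr1d2, Per1 and Tef), and with a library left out 3 to 6. In HIRA KO the count was 1 with all libraries, 0 without the filter and 0 to 3 with a library left out. The median log2 fold change of the 10 genes in HIRA KO against control after regeneration was 1.41, ran from 0.84 to 1.72 with a library left out, and was 0.76 without the 4 HIRA KO libraries that stood apart and 0.96 by FPKM, where the pseudocount lowers the change of low genes.

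Signs turned in 8 fits with a library left out, all of uncalled values. Before regeneration the log2 fold change of HIRA KO against control then ran from -0.054 to 0.53 for Per1 and from -0.26 to 0.10 for Per2. Over regeneration it ran from -0.20 to 0.55 for Cry1 in control, and in HIRA KO from -1.09 to 0.019 for Per2, from -0.28 to 0.065 for Cry1 and from -1.05 to 0.061 for Dbp, and the cause was not tested. Ciart over regeneration in HIRA KO, given without a test, ran from -0.36 to 0.90 and was -1.16 without the 4 libraries that stood apart. No paired analysis was possible because the columns do not name the mouse and their running numbers are in no label. The fall of Ciart in control rests on 6 to 11 counts a library after regeneration, which limits its fold change.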

Other observations

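Immediate early genes formed a list of 7 that handling and injury induce rapidly, of which 4 fell over regeneration in control and 5 in HIRA KO. The shares of all genes called lower were 4.17% in control and 5.53% in HIRA KO. In control Fos (log2 fold change -2.81), Fosb (-4.90), Junb (-1.14) and Nr4a1 (-4.25) were called lower (edgeR, adjusted p under 0.05). Fosb there rested on 1 to 4 counts a library after regeneration, which limits its fold change. In HIRA KO Fos (-3.44), Fosb (-3.72), Junb (-1.55), Nr4a1 (-4.33) and Egr1 (-2.77) were called lower at the same threshold. None of the 7 was called in HIRA KO against control at either time, against 0.0391% of all genes before and 0.491% after regeneration. By value all 7 were higher in HIRA KO before regeneration (median log2 fold change 0.99, that of all genes 0.0094). After regeneration 6 were higher and 1 was lower (median 0.66, that of all genes 0.02). Jun was called in neither genotype, nor was Atf3, whose log2 fold change was 0.51 in control and 0.01 in HIRA KO. The part of these genes in the clock genes' values was not tested.

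Glucocorticoid-responsive genes formed a list of 8, of interest because the hormone also acts on Per1. In control Tat (-1.95) and Pck1 (-1.68), enzymes of amino acid breakdown and gluconeogenesis, were called lower and Fkbp5 (0.98) and Mt2 (4.39) higher. In HIRA KO Tat (-1.78), Pck1 (-1.21) and Fkbp5 (0.74) were called in the same directions. Over all genes, 4.17% were called lower and 6.04% higher in control, and 5.53% and 6.48% in HIRA KO. In HIRA KO against control 0 of 8 were called at either time, against 0.0391% of all genes before and 0.491% after regeneration.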
